A study of Homo sapiens with 2 samples.

Results

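A set of 10 genes that govern the epithelial to mesenchymal transition (EMT) was followed in SUM-159, a line of human breast cancer cells that lack hormone receptors and are mesenchymal in character. They were chosen by name, as 10 of the 60880 rows of the deposited RPKM table, matched by Ensembl identifier: SNAI1, SNAI2, TWIST1, TWIST2, ZEB1, ZEB2, PRRX1 and FOXC2, which promote the transition, and GRHL2 and OVOL1, which oppose it. RPKM scales the reads of a gene to its length in kilobases and to 1000000 reads in all. The study compared 1 library of cells labelled PD-L1L2-SE deficient, which lack a super-enhancer tied to the PD-1 ligand genes, with 1 library of cells labelled sgVector, the control. The labels do not say whether the deficient cells were 1 clone or a pool, and give no treatment or time point for either group. With 1 library per group no difference has a replicate check and no test between conditions was possible. The intervals are 95% intervals of the reads and cover counting error only, not variation between libraries. Reads amplified by PCR and lacking molecular identifiers do not stand for separate molecules, so the intervals may be too narrow even for counting error. In bulk RNA, fewer cells that express a gene and less RNA per cell cannot be told apart.

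The Snail, Twist and ZEB proteins are DNA-binding factors that recognise E-box sequences and, with corepressor complexes, shut down genes of epithelial junctions such as CDH1. Snail and ZEB proteins use zinc fingers, while Twist proteins are basic helix-loop-helix factors that bind DNA together with E proteins. PRRX1 and FOXC2 are a homeodomain and a forkhead factor of mesenchymal tissue. GRHL2 and OVOL1 hold cells in the epithelial state, and GRHL2 and ZEB1 are known to repress each other. In basal-like breast cancer lines of mesenchymal type the promoting factors are usually present and the opposing factors silent.

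The 2 libraries held 16381546 (deficient) and 16206675 (sgVector) reads on genes. All 8 markers of mesenchymal lines were above 1 RPKM in both libraries, with VIM (vimentin) at 390 and 746 RPKM and FN1 (fibronectin) at 297 and 229 RPKM in the deficient and sgVector libraries. Of 10 luminal markers, PGR and TFF1 had 0 reads, ESR1 had 6 and 2 reads, and CDH1, EPCAM and KRT19 had at most 1 read in either library, while KRT8 and KRT18, whose annotated spans overlap, were present at 15.5 to 28.9 RPKM, and the 4 luminal genes with a mean past 1 RPKM had log2 ratios from -0.64 to -0.26. Of 8 leukocyte markers only CD14 passed a mean of 1 RPKM, at 15.4 and 11.03 RPKM. PTPRC, CD3E, MS4A1 and CD2 had between 0 and 4 reads, while ITGAM had 9 and 7 and LCP2 6 and 2. Fibroblast markers summed to 32.3 and 22.9 RPKM over 6 genes, with PDGFRA 2.10-fold higher (22.1 against 10.5 RPKM) and COL6A3 2.13-fold lower (2.83 against 6.03 RPKM) in the deficient library, and endothelial markers to 17 and 9 reads over the 4 of 5 genes that were matched. The part of these marker differences in the ratios below was not tested.

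TWIST2 was by far the most abundant of the 10 genes in both libraries, and GRHL2 and OVOL1 had no read in either. TWIST2 stood at 69.8 RPKM in the deficient library and 81.1 RPKM in the sgVector library, above 98.0% and 98.3% of all protein-coding genes, and made up 64.8% and 64.7% of the summed RPKM of the 8 promoting factors. Another 5 genes formed a close group below it. In the sgVector library these were FOXC2 at 9.60 RPKM (8.73 to 10.5, exact Poisson interval), TWIST1 at 8.80 (7.82 to 9.88), SNAI2 at 8.48 (7.72 to 9.28), SNAI1 at 8.45 (7.40 to 9.62) and ZEB1 at 7.14 (6.70 to 7.60). Each neighbour in that order overlapped the next in its counting interval. ZEB2 at 1.43 RPKM (1.32 to 1.55) and PRRX1 at 0.307 RPKM (0.220 to 0.416) lay apart below them.

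The order within the middle group was not the same in the deficient library. There SNAI2 led at 9.23 RPKM (8.45 to 10.1), followed by TWIST1 at 7.72 (6.80 to 8.72), ZEB1 at 7.31 (6.87 to 7.77) and FOXC2 at 6.65 (5.94 to 7.43), each overlapping the next. SNAI1, level with SNAI2 in the sgVector library, was now clear of the group at 4.45 RPKM (3.70 to 5.31). These levels depend on the length used. The merged exons of ZEB2 span 25058 bases in the deposited table, against 9583 bases for its longest transcript in GENCODE release 29, and per kilobase of that transcript ZEB2 came to 5.63 and 3.75 in the deficient and the sgVector library, per 1000000 reads on genes, in place of 2.15 and 1.43 RPKM. ZEB1 (8650 against 6267 bases) came to 10.1 and 9.86. By transcript length FOXC2 moved from place 2 to place 5 in the sgVector library, and ZEB2 passed SNAI1 in the deficient library. The first place of TWIST2 did not depend on this choice.

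**Figure D1:**
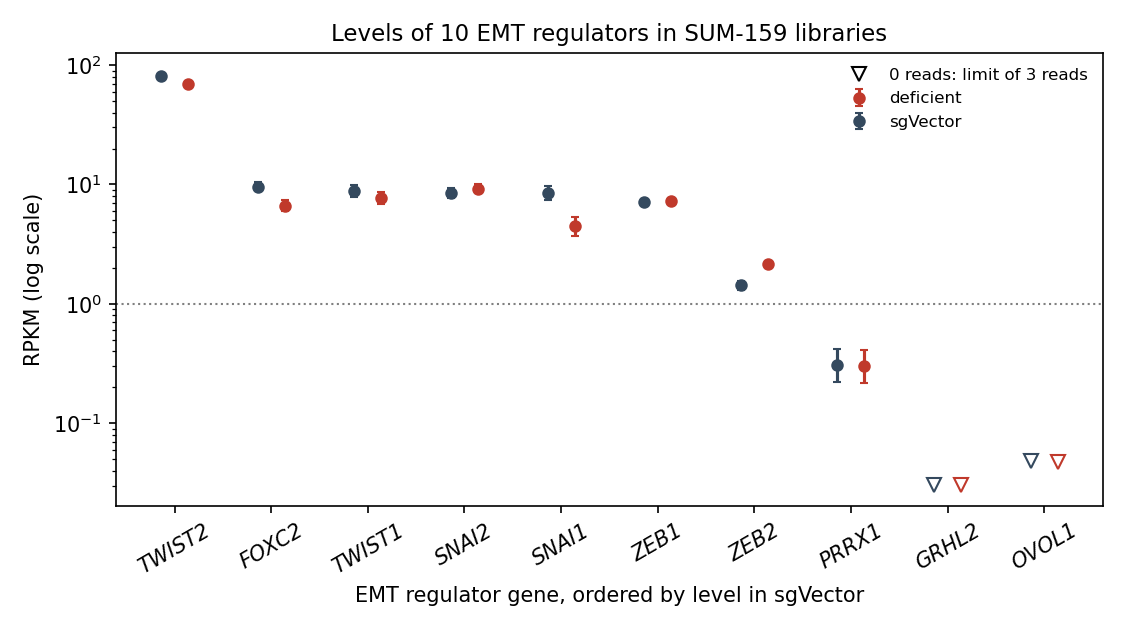
Level of each EMT regulator in RPKM on a log axis, with 1 point per library and its exact 95% Poisson interval (counting error only); the dotted line marks 1 RPKM and open triangles mark the level that 3 reads would give for genes with 0 reads. TWIST2 sits near 70 to 81 RPKM in both libraries, SNAI1 and FOXC2 are lower and ZEB2 higher in the deficient library, and GRHL2 and OVOL1 have no read.

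None of the 10 genes reached a 2-fold difference in either direction. That call used log2 ratios of (RPKM + 0.1), deficient over sgVector, and a floor of 1 RPKM on the mean of both libraries, which 7 of the 10 passed. Counts of 0 higher and 0 lower among 7 compare with 3.03% higher and 4.69% lower (7.73% in all) over the 13552 genes past that floor, and lie near that background. Among the 10576 protein-coding genes past the floor 4.17% passed in either direction. Of the 7, 3 ratios were above 0 and 4 below, with a median of -0.19 against -0.05 for all genes past the floor. That median is the value of TWIST1, which turned to 0.04 once GC content and gene length were corrected for. TWIST2 and ZEB1 changed sign with that correction too, so neither the median nor the split around 0 shows a common direction. The counting interval of the read ratio excluded no change for 4 of the 7, and it did so for 58.5% of all genes past the floor, so an interval clear of no change was the common case here.

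The Snail family differed between its members. SNAI1 (ENSG00000124216, chromosome 20, 48599536 to 48605423 in hg19, 3 exons), an early inducer of the transition and direct repressor of CDH1, had 123 reads (4.45 RPKM) in the deficient library and 231 reads (8.45 RPKM) in the sgVector library. It was 1.90-fold lower in the deficient library (1.52 to 2.38), the farthest of the 10 genes from no change, and the interval spans 2-fold, so the depth does not settle on which side of that threshold it lies. Its log2 ratio was -0.91, and 2.82% of protein-coding genes past the floor had a lower one. A difference of at least 1.5-fold downward, which SNAI1 reached, was found for 12.6% of all genes past the floor. SNAI2 (ENSG00000019549, chromosome 8, 49830163 to 49834299), also called Slug and a factor of basal and stem-like mammary cells, had 513 reads (9.23 RPKM) in the deficient and 466 reads (8.48 RPKM) in the sgVector library, a ratio of 1.09 (0.959 to 1.24) that includes no change. The RPKM of SNAI1 divided by that of SNAI2 was therefore 0.482 in the deficient library and 0.997 in the control. The near equality in the control depends on the length used. Per kilobase of the longest transcript SNAI1 stood at 8.45 and SNAI2 at 10.2 there, and at 4.45 and 11.1 in the deficient library. SNAI3, the least studied family member, had 5 and 4 reads.

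Both Twist genes were slightly lower in the deficient library, though not once GC content and gene length were corrected for. TWIST1 (ENSG00000122691, chromosome 7, 19060614 to 19157295) had 257 reads against 290 in the sgVector library, 7.72 against 8.80 RPKM, and was 1.14-fold lower with an interval that includes no change (0.961 to 1.35). TWIST2 (ENSG00000233608, chromosome 2, 239756673 to 239832239), also called Dermo1, had 1642 reads against 1888, 69.8 against 81.1 RPKM, and was 1.16-fold lower (1.09 to 1.24). TWIST2 has the narrower interval because it has more reads. With that correction the log2 ratios of -0.19 and -0.22 turned to 0.04 and 0.014, so both directions depend on that setting. The Twist paralogs are separable at the level of sequence, as no 50-base stretch is shared between their GENCODE transcripts and the longest identical stretch is 23 bases. The same figure was 12 bases for SNAI1 and SNAI2 and 27 bases for ZEB1 and ZEB2.

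Of the ZEB genes, ZEB2 was higher in the deficient library and ZEB1 was not distinguishable between libraries. ZEB2 (ENSG00000169554, chromosome 2, 145121931 to 145282150), also called SIP1, had 884 reads (2.15 RPKM) in the deficient library and 582 reads (1.43 RPKM) in the sgVector library, 1.503-fold higher (1.35 to 1.67). ZEB1 (ENSG00000148516, chromosome 10, 31607424 to 31818742), a central repressor of epithelial genes in breast cancer lines, had 1036 reads (7.31 RPKM) and 1001 reads (7.14 RPKM), a ratio of 1.02 (0.938 to 1.12). ZEB2 had the highest ratio of the 10 genes, above 92.3% of protein-coding genes past the floor. After the GC and length correction its log2 ratio went from 0.56 to 0.35, and that of ZEB1 from 0.03 to -0.16.

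The miR-200 family keeps ZEB1 and ZEB2 low in epithelial cells by binding their transcripts through the seed, and ZEB proteins in turn repress the miR-200 genes. The family falls into 2 groups that differ by 1 base of the seed, bases 2 to 8, shown here in capitals in the RefSeq mature sequences (5′ to 3′, GRCh38.p14) because this family acts on the ZEB genes.
hsa-miR-200b-3p: uAAUACUGccugguaaugauga
hsa-miR-200c-3p: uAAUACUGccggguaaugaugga
hsa-miR-429: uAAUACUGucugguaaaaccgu
hsa-miR-200a-3p: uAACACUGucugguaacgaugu
hsa-miR-141-3p: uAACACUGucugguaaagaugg
The first group of 3 has the seed AAUACUG and the second, miR-200a and miR-141, the seed AACACUG. All 9 matched rows of a list of 11 miRNA and host genes, among them MIR200CHG and the hairpins of the 5 miRNAs above, had 0 reads in both libraries. For MIR200CHG, the host of miR-200c and miR-141, 0 reads allow up to 0.523 RPKM in the deficient and 0.529 RPKM in the sgVector library. The rows of the 5 hairpins are short, and 0 reads allow from 1.93 RPKM (MIR141 and MIR200B, deficient library) to 2.72 RPKM (MIR200C, sgVector library), above the level of ZEB2 in the sgVector library. The list held no host transcript row for miR-200a, miR-200b and miR-429. Mature miRNAs carry no poly(A) tail and are not measured by these libraries, labelled as polyA RNA, so that this says nothing on the mature forms.

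PRRX1 and FOXC2 belong to the mesenchymal side through tissue patterning. FOXC2 (ENSG00000176692, chromosome 16, 86600435 to 86603334, a gene of 1 exon), which is found in claudin-low and stem-like breast cells, had 316 reads (6.65 RPKM) in the deficient library and 451 reads (9.60 RPKM) in the sgVector library, 1.44-fold lower (1.25 to 1.67). Its GC content of 63.2% is the highest of the 10 genes, and its log2 ratio of -0.52 became -0.24 after the GC and length correction. The close paralog FOXC1 was 1.18-fold lower (1.01 to 1.38), with 312 reads against 364. PRRX1 (ENSG00000116132, chromosome 1, 170631869 to 170708560) stayed below the floor with 41 reads in each library, 0.304 and 0.307 RPKM, a ratio of 0.989 (0.626 to 1.56) whose interval allows up to 1.56-fold higher or 1.598-fold lower at this depth. Its paralog PRRX2 had 0 reads.

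The 2 opposing factors were not detected. GRHL2 (ENSG00000083307, chromosome 8, 102504660 to 102681954, 16 exons) and OVOL1 (ENSG00000172818, chromosome 11, 65554493 to 65564690, 6 exons) had 0 reads in both libraries. A count of 0 allows up to 0.0302 RPKM in the deficient and 0.0305 RPKM in the sgVector library for GRHL2, and up to 0.0476 and 0.0481 RPKM for OVOL1. No difference between the libraries was detectable for either gene at this depth. Their paralogs were scarce as well, with 17 and 19 reads for GRHL1, 4 and 2 for GRHL3, 0 for OVOL2 in both and 0 and 2 for OVOL3, deficient library first.

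**Figure D2:**
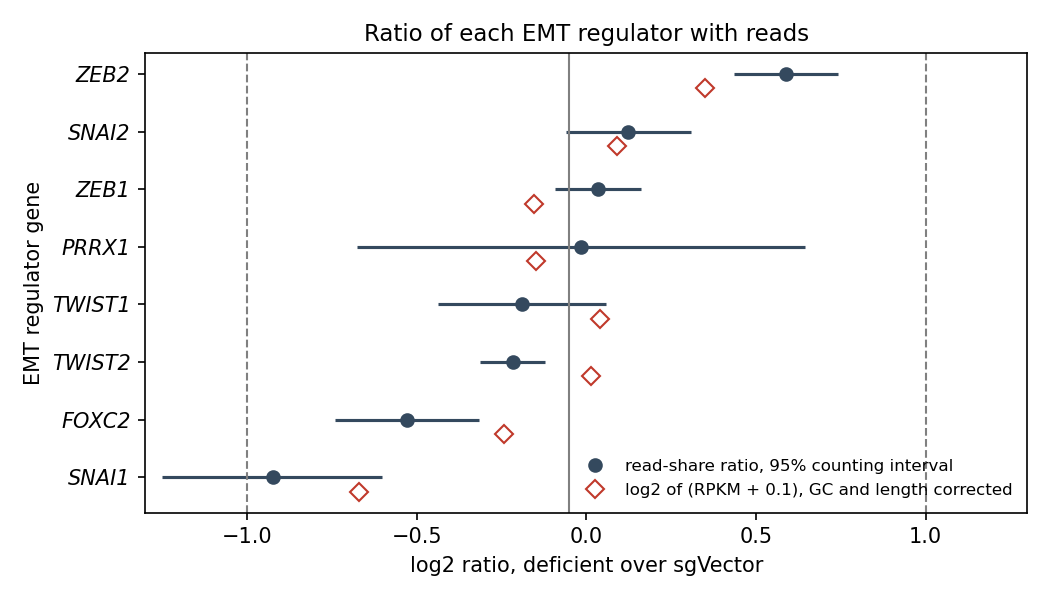
Log2 ratio of the deficient over the sgVector library for the 8 EMT regulators with reads, as the ratio of read shares with its 95% counting interval (filled points) and as the log2 ratio of (RPKM + 0.1) after the GC and length correction (open diamonds). Dashed lines mark 2-fold and the solid line the median of all genes past the floor (-0.05); SNAI1 and FOXC2 lie lowest, ZEB2 highest, and the correction moves the GC-rich genes up and the ZEB genes down.

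Base composition went along with the ratios over all genes, and the regulators differ widely in it. When protein-coding genes past the floor were split into 5 classes of GC content, the median log2 ratio was 0.14 in the most AT-rich class and -0.20 in the most GC-rich class. ZEB1 and ZEB2, at 38.5% and 39.1% GC, fall in the former, and SNAI1 and FOXC2, at 58.2% and 63.2%, in the latter. The Twist genes lie in the fourth class, with a median of -0.13, near their own values. SNAI1 at -0.91, FOXC2 at -0.52 and ZEB2 at 0.56 each lay farther from 0 than the median of their class and kept their sign after the correction, at -0.67, -0.24 and 0.35.

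SNAI1 and ZEB2 lay outside the range of their neighbours on the chromosome with and without the GC and length correction, and FOXC2 only without it. For each gene the 5 nearest protein-coding genes past the floor on each side were taken. The 10 neighbours of SNAI1, all within 0.758 Mb, had log2 ratios from -0.48 to 1.03 with a median of -0.08, all above SNAI1 itself. Those of FOXC2 ran from -0.49 to 0.39 (median -0.06), again all above the gene, though the lowest by less than the width of the counting interval of FOXC2. Those of ZEB2, which reach 8.59 Mb away, ran from -0.48 to 0.42 (median 0.08), all below it. With the correction applied to both, SNAI1 at -0.67 stood below neighbours from -0.59 to 1.08. ZEB2 at 0.35 stood above neighbours from -0.54 to 0.30. In both cases the neighbour closest in value lay within less than the width of that gene's counting interval. This held without the correction too. With it, FOXC2 at -0.24 lay within neighbours from -0.40 to 0.41. SNAI2, TWIST1, TWIST2 and ZEB1 lay within the range of their neighbours, whose medians were 0.29, 0.15, -0.13 and -0.11, with those of SNAI2 reaching 5.15 Mb away. The neighbours of GRHL2 were all above 0, with a median of 0.35, against a median of 0.13 over the 372 genes past the floor on chromosome 8, while GRHL2 itself had no read. TWIST1 had the widest range around it, from TSPAN13 at -1.59 to SP8 at 2.34, the latter from 112 reads against 17. These flanking genes were picked by position, and SP8 and TSPAN13 were singled out after their values were seen.

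**Figure D3:**
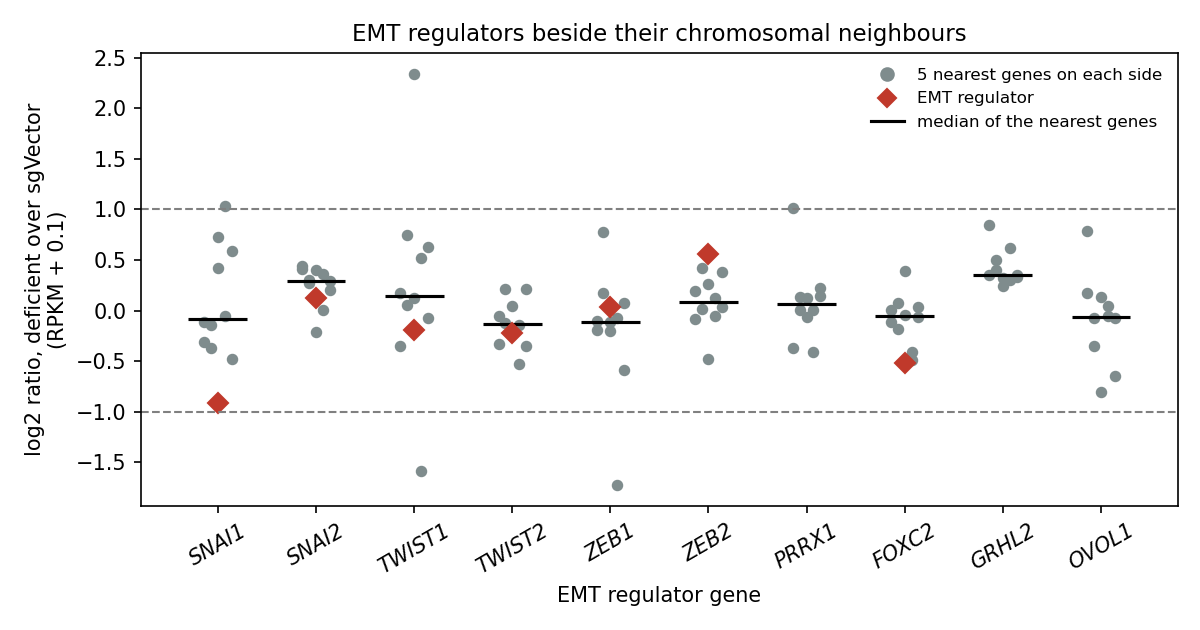
Log2 ratio of (RPKM + 0.1), deficient over sgVector, for each EMT regulator past the floor (diamonds) and for the 5 nearest protein-coding genes past the floor on each side (grey points, with their median as a bar). Without the GC and length correction SNAI1 and FOXC2 lie below and ZEB2 above all 10 of their neighbours, and the other 4 regulators lie among theirs.

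Most antisense and overlapping transcripts at these genes had few reads. ZEB1-AS1, transcribed away from the ZEB1 promoter, had 218 reads (3.47 RPKM) in the deficient and 242 reads (3.90 RPKM) in the sgVector library, 1.12-fold lower (0.931 to 1.35), an interval that includes no change as for ZEB1 itself. It shares 366 bases of exon with ZEB1, 4.23% of the ZEB1 length. Since strand-specific counting is not stated, reads there cannot be assigned with certainty. ZEB2 shares 2966 bases of exon (11.8%) with ENSG00000176824 on the same strand and 1299 bases (5.18%) with ZEB2-AS1. OVOL1 shares 1044 bases (27.1%) with ENSG00000255404 on the opposite strand. Reads in those stretches cannot be assigned with certainty either. SPTLC1P1, a pseudogene inside the ZEB1 span on the same strand, had 82 and 51 reads (19.2 and 12.1 RPKM) and shares no exon base with ZEB1. A pseudogene inside the GRHL2 span on the opposite strand, ENSG00000253153, had 22 and 12 reads and likewise shares no exon base. FOXC2-AS1 had 3 reads in each library and ZEB2-AS1 had 2 and 0. FENDRR, a long non-coding RNA of the same chromosome region as FOXC2, had 0 and 7 reads, SNAI3-AS1 had 12 in each, PRRX2-AS1 had 0 and 1, and OVOL1-AS1 had none.

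The wider set of EMT factors moved in both directions, and few of its genes passed 2-fold. Of 20 listed factors 13 passed the floor, 1 was past 2-fold upward and 1 downward, beside 3.03% and 4.69% of all genes past the floor, and their median was 0.10. MSX2, a homeobox factor downstream of BMP signalling, had 120 reads against 44 and was 2.70-fold higher in the deficient library (1.90 to 3.90). HMGA2, a chromatin protein that activates SNAI1 and TWIST1, had 195 reads against 421, which is 2.18-fold lower (1.84 to 2.60). At 0.773 against 1.69 RPKM, HMGA2 passed the floor on the mean only through the sgVector library, where it is higher. Both intervals reach below 2-fold. SOX4 at 0.51 and TEAD1 at 0.48 followed MSX2, and RUNX2 at -0.51 and FOXC1 at -0.23 followed HMGA2.

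The ID genes, inhibitors of the partners of Twist proteins, were higher in the deficient library. Twist factors pair with E proteins to bind DNA, and ID proteins, which lack a DNA-binding region, take E proteins out of use. ID2 had 908 reads (25.1 RPKM) in the deficient library and 292 reads (8.17 RPKM) in the sgVector library, 3.08-fold higher (2.69 to 3.52). ID3 was at 51.9 against 29.6 RPKM, 1.75-fold higher (1.61 to 1.91), and ID1 at 77.8 against 50.4 RPKM, 1.54-fold higher (1.42 to 1.67). All 3 ID genes past the floor were thus at least 1.5-fold higher, against 8.29% of all genes past the floor, and ID4 had no read. All 3 were higher after the GC and length correction too, where ID3 reached 1.04 on the log2 scale. Of the E protein genes, TCF3 was 1.09-fold lower (1.04 to 1.15) at 29.4 against 32.1 RPKM (a log2 ratio of 0.05 after the correction), TCF12 1.34-fold higher (1.24 to 1.45) at 9.13 against 6.81 RPKM, and TCF4, below the floor, 2.10-fold higher (1.81 to 2.45) at 1.18 against 0.561 RPKM. Summed RPKM of the 3 E protein genes was 39.8 against 39.5, while that of the ID genes was 155 against 88.2, so the ratio of the ID sum to the E protein sum was 3.89 in the deficient library and 2.23 in the control. These sums were formed after the values were seen. The merged exons of TCF4 span 27828 bases, so its part in the E protein sum depends on the length used.

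**Figure D4:**
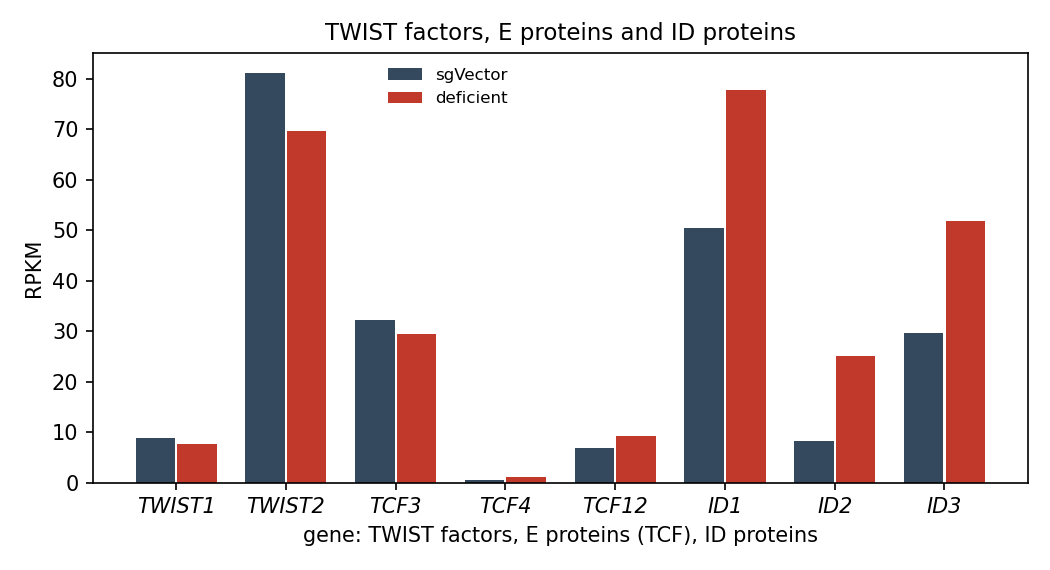
RPKM of TWIST1, TWIST2, the E protein genes TCF3, TCF4 and TCF12 and the ID genes ID1, ID2 and ID3, with 1 bar per library and no error bars, since there is 1 library per group. The ID genes stand higher in the deficient library (ID2 at 25.1 against 8.17 RPKM), while the Twist genes and TCF3 stand slightly lower before, and not after, the GC and length correction.

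Epithelial transcription factors beyond GRHL2 and OVOL1 did not share a direction. Of 20 listed genes 9 passed the floor, 4 had no read in either library, and none of the 9 passed 2-fold in either direction, a count near the background of 7.73%. The listed splicing factors were below the floor, ESRP1 with 6 reads against 23, 3.87-fold lower (1.53 to 11.6), and ESRP2 with 6 against 5. TP63, the p63 factor of basal epithelium, had 488 reads against 243 and was 1.99-fold higher in the deficient library (1.70 to 2.33). EHF, an ETS factor of epithelia, was 1.85-fold higher (1.57 to 2.18) and KLF4 1.61-fold higher (1.42 to 1.83). FOXA2 was 1.93-fold lower (1.40 to 2.71), TFAP2A 1.74-fold lower (1.62 to 1.86) and GATA3, the luminal factor, 1.62-fold lower (1.12 to 2.38) from 48 reads against 77. The median of the 9 was -0.08, or 0.07 after the GC and length correction.

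Corepressors and enzymes that act with Snail and ZEB proteins stayed within a narrow range. All 20 listed genes passed the floor, with log2 ratios from -0.40 to 0.33, a median of -0.16 and 0 past 2-fold, beside 7.73% of all genes past the floor. EZH2, the histone methyltransferase of Polycomb complex PRC2, was lowest at -0.40, with AJUBA at -0.40 and EHMT2 at -0.36. CTBP2, a corepressor bound by ZEB proteins, was highest at 0.33, ahead of SIN3A at 0.15 and SUZ12 at 0.14 (-0.03 after the GC and length correction). Genes that control the stability of the Snail and Twist proteins spread more widely, with 17 of 19 past the floor, a median of 0.05 and again 0 past 2-fold, beside the same 7.73%. Among these CSNK1E at -0.86, FBXW7 at -0.55 and GSK3B, the kinase that marks SNAI1 for degradation, at -0.44 were lowest, and ATM at 0.78, CSNK1A1 at 0.65 and SKP2 at 0.48 were highest.

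Among signals past the floor that are known to induce the transition, TGFB2 came nearest to 2-fold. Of 20 listed ligands, receptors and effectors 18 passed the floor, 0 passed 2-fold, beside 7.73% of all genes past the floor, and the median was 0.05. TGFB2, a TGF-beta ligand, had 899 reads against 472 and was 1.88-fold higher in the deficient library (1.68 to 2.11), while TGFB1, the more abundant ligand at 77.1 against 86.4 RPKM, stood at -0.16 (0.11 after the GC and length correction). TGFB3, another ligand of the family, stayed below the floor with 37 deficient and 75 sgVector reads, a share 2.05-fold lower (1.36 to 3.13), and was singled out after its values were seen. HES1, a Notch target, and TGFBR2, a TGF-beta receptor, stood at 0.55 and 0.29. WNT5A and SMAD3 stood at -0.56 and -0.35.

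Most of the listed epithelial genes that these repressors act on stayed below the floor. Of 30 listed targets 5 had no read, 16 more stayed below the floor and 9 passed it. JUP was the most abundant of the 30, at 75.1 RPKM in the deficient and 95.6 RPKM in the sgVector library. CDH1, which encodes E-cadherin, had 0 reads in the deficient library and 1 read in the control, and EPCAM had 1 and 0. Of the 9 genes past the floor 0 passed 2-fold upward and 2 downward, beside the background shares of 3.03% and 4.69%, and their median was -0.26. DSP, the desmosomal linker desmoplakin, had 128 reads (0.774 RPKM) against 525 reads (3.21 RPKM) and was 4.15-fold lower in the deficient library (3.41 to 5.07). DSP passed the floor on the mean only through the sgVector library, where it is higher. CLDN1, a tight junction claudin, was 2.30-fold lower (1.85 to 2.87), with 121 reads against 275. KRT18 stood at -0.45, and PKP3 and TJP1 at 0.45 and 0.20.

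Snail and ZEB zinc fingers bind the E-box CACCTG, which reads CAGGTG on the other strand, and the letters were searched in the 250 bases before each RefSeq transcription start in GRCh38.p14. Either form was found in 17.5% of all 35116 windows. Windows of the same length were held for 16 of the 30 epithelial targets, and 13 of their 25 windows contained it, with several windows of a gene overlapping. No window was held for CDH1. For the mesenchymal targets 4 of 25 windows contained it, and for the 10 EMT regulators 2 of 10 windows, both of ZEB1, from the 4 genes with an entry. Counted by gene, 11 of 16 epithelial and 3 of 17 mesenchymal targets had a match, beside 20.6% of 27305 genes with a window. The window of CLDN1, the other epithelial target past 2-fold, held 0 matches. The windows of DSP, the epithelial target with the lowest ratio, and of 1 ZEB1 start are shown, with both forms of the E-box in capitals (plus strand, 5′ to 3′, chr6:7541421-7541670 for DSP and chr10:31318966-31319215 for ZEB1).
DSP: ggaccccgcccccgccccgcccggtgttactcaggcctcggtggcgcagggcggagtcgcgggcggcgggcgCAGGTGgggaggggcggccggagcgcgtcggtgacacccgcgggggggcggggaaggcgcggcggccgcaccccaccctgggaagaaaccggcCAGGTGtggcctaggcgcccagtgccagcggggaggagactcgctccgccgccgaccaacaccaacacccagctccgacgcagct
ZEB1: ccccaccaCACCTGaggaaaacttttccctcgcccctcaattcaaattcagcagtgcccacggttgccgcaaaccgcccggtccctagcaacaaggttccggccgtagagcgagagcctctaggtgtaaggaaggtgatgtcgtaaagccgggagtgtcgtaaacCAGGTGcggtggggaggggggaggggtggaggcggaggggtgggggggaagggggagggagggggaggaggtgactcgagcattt
Each holds 2 matches, whose first bases lie 178 and 85 bases before the start of DSP and 242 and 85 bases before that of ZEB1. A match is a run of letters and says nothing on whether a factor was bound in these cells.

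Many mesenchymal target genes were abundant in both libraries, and more of them had ratios below 0 than above. Of 30 listed genes 21 passed the floor, 15 with a ratio below 0 and 6 above, with a median of -0.27, where 55.5% of all genes past the floor were below 0. None passed 2-fold upward and 3 passed it downward, beside 3.03% and 4.69% of all genes past the floor. These were FBN1 (fibrillin, 269 reads against 863) by 3.24-fold (2.82 to 3.73), LOXL2 by 2.59-fold (2.50 to 2.68) and COL1A1 by 2.54-fold (2.37 to 2.72). LOXL2, a lysyl oxidase that crosslinks collagen, is also known to stabilise SNAI1. VIM, the intermediate filament of mesenchymal cells, was 1.91-fold lower (1.89 to 1.94), with 32929 reads against 62376. CDH2, which encodes N-cadherin, stood at 30.6 against 31.7 RPKM, a ratio of 0.967 (0.915 to 1.02), and AXL at 67.5 against 68.0 RPKM. ITGB3, MMP2 and FN1 were highest of the list, at 0.53, 0.52 and 0.37.

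**Figure D5:**
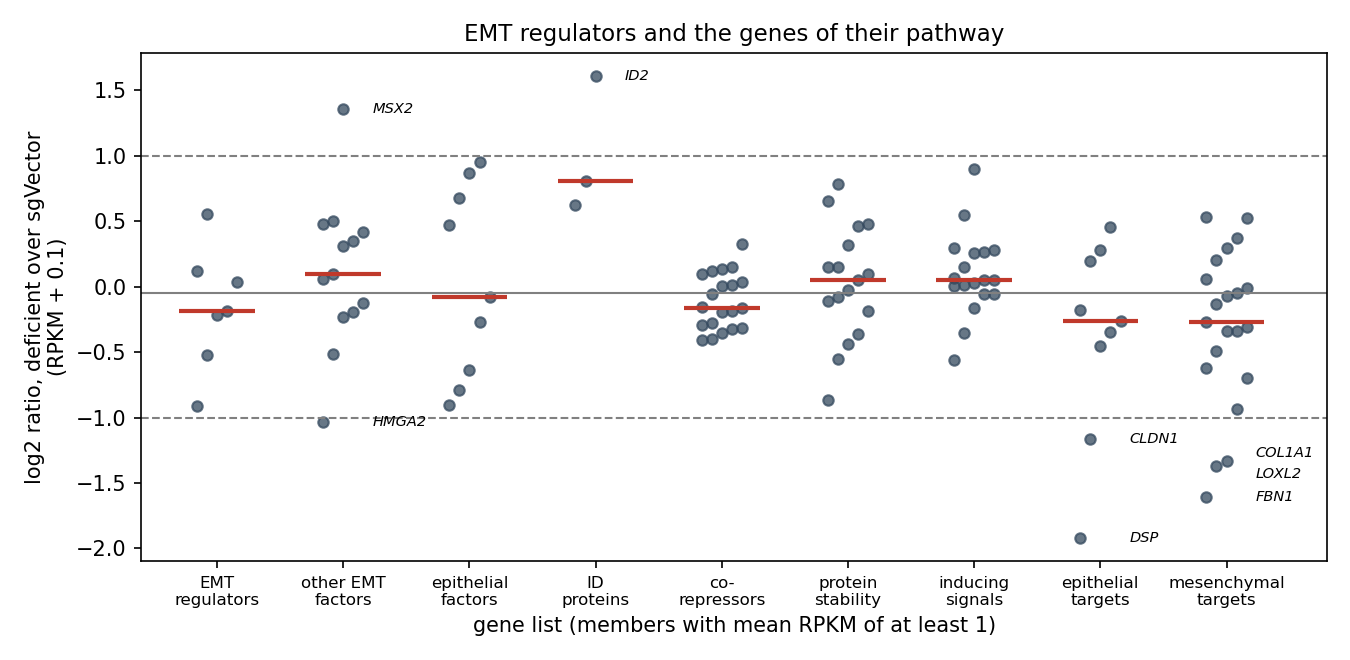
Log2 ratio of (RPKM + 0.1), deficient over sgVector, for members past the floor of the EMT regulators and of 8 related gene lists, with 1 point per gene and the list median as a bar; dashed lines mark 2-fold, the solid line the median of all genes past the floor, and genes past 2-fold are named. None of the 7 EMT regulators shown passes 2-fold, while DSP, CLDN1, FBN1, LOXL2, COL1A1 and HMGA2 lie below and ID2 and MSX2 above.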

How the data were processed

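RNA sequencing was compared in 2 libraries of SUM-159 cells, 1 per group. The authors deposited RPKM values with exon coordinates and gene length per gene, made with Subread and featureCounts 1.6.4 on GRCh37/hg19, per the submitters' processing notes. The aligner settings, annotation release, strand setting and read length were not stated there, so antisense and overlapping genes are uncertain. Values times gene length were whole multiples of 1 read for 100% of values (within 1e-06 of a read), which gave 16381546 and 16206675 reads. After removal of 41 rows for pseudoautosomal Y copies, of 60839 rows 56817 (93.4%) matched GENCODE release 29, used for gene types, transcript lengths and GC content, not coordinates.

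The log2 ratio of (RPKM + 0.1) was taken where the mean of both libraries was 1 RPKM or more. A gene could thus pass through 1 library alone. This log2 scale understates changes of low genes. Folds in the text are ratios of read shares with a 95% Clopper-Pearson interval, and levels have exact Poisson intervals. A count of 0 was allowed 3 reads. No p-value was computed. Members and lists were chosen with earlier results of these data known. All 10 regulators were named, and of other lists the 3 highest and 3 lowest members past the floor, members past 2-fold, paralogs and partner RNAs with reads, and CDH1, CDH2, VIM, EPCAM and FN1; other genes were chosen after their values were seen, and marker lists are summarised. Alternatives were pseudocounts of 1 and 0.01 RPKM, trimmed mean of M values (TMM), TPM, median centring, lowess correction on GC content and then log10 length (share 0.3, protein-coding genes), floors of 0.5 and 5 RPKM and none, a 1.5-fold threshold and intervals wholly past 2-fold. The steps were tested on simulated data: 100% of 100 genes changed 3-fold and 0% of 100 changed 1.5-fold passed 2-fold. The changed genes were well-covered protein-coding genes past the floor, with counting noise only. Folds near 2, genes with few reads and variation between libraries were not tried. Intervals came from scipy 1.17.1, lowess from statsmodels 0.14.6, figures from matplotlib 3.10.9, and tables from pandas 2.3.3 and numpy 2.4.6 in Python 3.11.15.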

Additional observations from a re-analysis of the deposited data

How the results depend on the processing

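No paired analysis was possible because each group has 1 library. The count of EMT regulators at least 2-fold higher was 0 under all 11 alternatives. That of regulators at least 2-fold lower was 0 except at a 1.5-fold threshold, where it was 1 (SNAI1). ZEB2 was not counted as higher at 1.5-fold, with a log2 ratio of (RPKM + 0.1) of 0.56, although its read shares differed 1.503-fold. The count of 0 higher at that threshold therefore rests on the pseudocount. Of 48 alternative log2 ratios of the regulators 43 stayed within the counting interval. That interval measures counting error, not the effect of settings, and is wide for genes with few reads such as PRRX1. The GC and length correction moved TWIST2 to 0.014, ZEB1 to -0.16, ZEB2 to 0.35 and FOXC2 to -0.24, and a pseudocount of 1 moved ZEB2 to 0.37. The signs of TWIST1, TWIST2, ZEB1 and PRRX1 changed under at least 1 alternative, and those of SNAI1 (-0.92 to -0.67), FOXC2, SNAI2 and ZEB2 under none of the 6 tried. Epithelial targets past 2-fold numbered 2, against 1 with a pseudocount of 1, 0 with a floor of 5 RPKM and 1 with the whole interval past 2-fold. Mesenchymal targets numbered 3, against 6 with no floor, 2 with a floor of 5 RPKM and 6 at 1.5-fold. Other EMT and epithelial factors numbered 2, against 3 with TPM and 3 with a floor of 0.5 RPKM. A pseudocount of 1 gave 0 and no floor gave 5. They numbered 0 with a floor of 5 RPKM, 8 at 1.5-fold and 0 with the whole interval past 2-fold. Floors, thresholds and the interval rule change by their own construction how many genes pass, and a larger pseudocount shrinks low genes. The lengths of the longest transcripts were chosen as an alternative after seeing the data, and moved 5 of 8 sgVector levels by more than 10%. Depth limits PRRX1, GRHL2, OVOL1 and CDH1.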
